A study of Mus musculus with 48 samples.

Results

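The inferior olive and the cerebellum of *Atxn1* 154Q/2Q knock-in (KI) mice were compared at 12 weeks of age for whether the mutant allele changed gene expression differently in the 2 tissues. The measure was the log2 ratio of KI to wild-type (WT) FPKM (fragments per kilobase of transcript and mapped library size) in the inferior olive minus the same log2 ratio in the cerebellum, on log2(FPKM + 0.1). It used 12 of the 48 RNA-seq libraries of the study: 3 KI and 3 WT libraries from each tissue. Of 21951 genes that could be matched by symbol between the tables of the tissues, the 12282 that averaged 0.5 FPKM or more in all 4 groups were tested. The mice of all 4 groups were 12-week-old males on the C57BL/6J strain. KI mice carry 1 mouse *Atxn1* allele with 154 glutamine codons and 1 with 2, under the gene's own regulatory elements, so that mutant Atxn1 is made in every cell type that uses the gene, and the WT controls were littermates without the expanded allele. Libraries of both tissues came from whole dissected tissue, and the labels do not say whether a cerebellum and an inferior olive came from the same mouse. The tables of the tissues were normalized separately, so levels are compared within a tissue and only ratios are compared between them. In whole tissue, fewer cells of a type and less RNA per cell cannot be told apart.

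Spinocerebellar ataxia type 1 is caused by an expanded polyglutamine tract in ATXN1, a nuclear protein that binds the transcriptional repressor Capicua. The neurons of the inferior olive send climbing fibers to the Purkinje cells, the output neurons of the cerebellar cortex, and both cell groups are affected in the disease. Purkinje cells answer climbing and parallel fiber input through the glutamate receptor mGluR1, which acts by the G protein Gq, phospholipase C beta and the release of calcium from internal stores.

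*Atxn1*, the targeted gene, was measured in every library. In the inferior olive it stood at 6.39, 6.35 and 5.81 FPKM in the WT controls and 7.31, 6.90 and 8.01 in the KI mice. In the cerebellum it stood at 9.43, 9.45 and 9.51 FPKM in WT and 9.79, 9.53 and 10.6 in KI. The KI libraries lay above the WT libraries in both tissues, but neither tissue passed the test (log2 ratio 0.25 ± 0.07 standard error (SE), adjusted p = 0.145 in the inferior olive and 0.07 ± 0.06, adjusted p = 0.454 in the cerebellum; difference between tissues adjusted p = 0.376). The expansion lengthens the transcript and does not remove it, so these levels do not check the genotype labels.

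The tissue labels were checked against defining genes. *Htr5b*, a serotonin receptor gene typical of olivary neurons, was at 6.47 to 9.02 FPKM in the WT inferior olive and at most 0.322 in any cerebellum library. *Gabra6*, a GABA receptor subunit of granule cells, was at 214.9 to 337.8 FPKM in the cerebellum and at most 1.82 in the inferior olive. *Pcp2*, a Purkinje cell gene, was at 477.2 to 672.0 FPKM in the cerebellum, but has 2 entries in that table and so was not among the genes tested. Between 11679 and 12237 matched genes reached 1 FPKM in each library. Libraries of a group correlated with each other at r = 0.988 to 0.996 across genes.

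The cerebellum libraries also differed in transcripts of midbrain neurons, and at 12 weeks this difference ran along the genotypes. The FPKM of 7 transcription factors of midbrain neurons (*Tfap2d*, *Lhx9*, *Pax7*, *Sox14*, *Gata3*, *Pou4f1* and *Pou4f2*, a list made after their values were seen) summed to 14.9, 7.50 and 10.9 in the 3 WT cerebellum libraries and to 0.527, 0.388 and 0.763 in the KI cerebellum. *Tfap2d*, which the inferior olive lacks (at most 0.0173 FPKM), was at 4.75, 2.55 and 3.60 FPKM in WT and at most 0.0523 in the KI cerebellum. All 3 WT libraries held these transcripts and all 3 KI libraries were nearly free of them, so within the 12-week cerebellum the midbrain transcripts and the genotype cannot be told apart. The inferior olive has its own *Pou4f1*, and its sum was 9.06 to 10.1 in WT and 6.64 to 7.90 in KI. At 5 weeks the same sum was 9.59, 1.97 and 0.370 in WT and 7.93, 0.270 and 4.60 in KI cerebellum, high and low in both genotypes. The main differences between tissues are therefore given beside 2 further values: the correlation of the gene with the midbrain sum over the 6 cerebellum libraries of 5-week-old mice, taken on deviations from the genotype means, and the difference from a fit over the 24 libraries of both ages with that sum as a covariate of the cerebellum libraries. The correlations share their libraries and are descriptions, and the fit was added after the data had been seen.

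Choroid plexus transcripts varied widely within every group. *Ttr*, its main transcript, was at 4309, 834.2 and 2465 FPKM in the WT and 2571, 1816 and 16.7 FPKM in the KI inferior olive, and at 413.4 to 1565 and 8.86 to 1664 FPKM in the WT and KI cerebellum. None of the 25 choroid plexus genes tested passed in either tissue or in the difference (median log2 ratio -1.003 in the inferior olive and -0.64 in the cerebellum).

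For 245 genes the KI-to-WT ratio differed between the tissues (adjusted p below 0.05 after Benjamini-Hochberg adjustment over all 12282 genes, here termed called), which is 1.99% of the genes tested. For 160 genes (1.3%) the ratio was higher in the inferior olive than in the cerebellum, and for 85 (0.692%) it was lower. Higher or lower in the inferior olive below refers to this ratio, not to the level. Most of these genes had changed in the cerebellum. Of the 245, 199 (81.2%) were called in the cerebellum alone, 13 in the inferior olive alone, 9 in both tissues and 24 in neither. Among the 199, 137 were lower and 62 higher in the KI cerebellum. The KI libraries lay wholly outside the range of the WT libraries in 32.1% of all genes tested in the cerebellum and 19.2% in the inferior olive, so such a separation by itself is common. The median size of the log2 ratio over the 245 genes was 0.50 in the cerebellum and 0.081 in the inferior olive. Over all genes tested the median difference was -0.016.

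Each tissue on its own gave 701 called genes in the cerebellum (5.71% of those tested, 254 up and 447 down) and 180 in the inferior olive (1.47%, 33 up and 147 down). A call in one tissue and not in the other was seldom backed by a difference between tissues. Of 637 genes called in the cerebellum alone, 199 (31.2%) differed between the tissues, and of 116 called in the inferior olive alone, 13 (11.2%) did. For the remaining 438 and 103 genes the data do not show that the tissues differ. The median standard error of a log2 ratio was 0.068 in the cerebellum and 0.057 in the inferior olive, so the tissues were measured with like precision.

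These counts moved with single libraries. Leaving out 1 of the 12 libraries gave between 84 interaction calls (without WT inferior olive library 3) and 564 (without WT cerebellum library 2). The inferior olive count fell to 30 without WT library 3, and the cerebellum count to 83 without KI library 1. The p-values measure the spread between these libraries only.

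**Figure D1:**
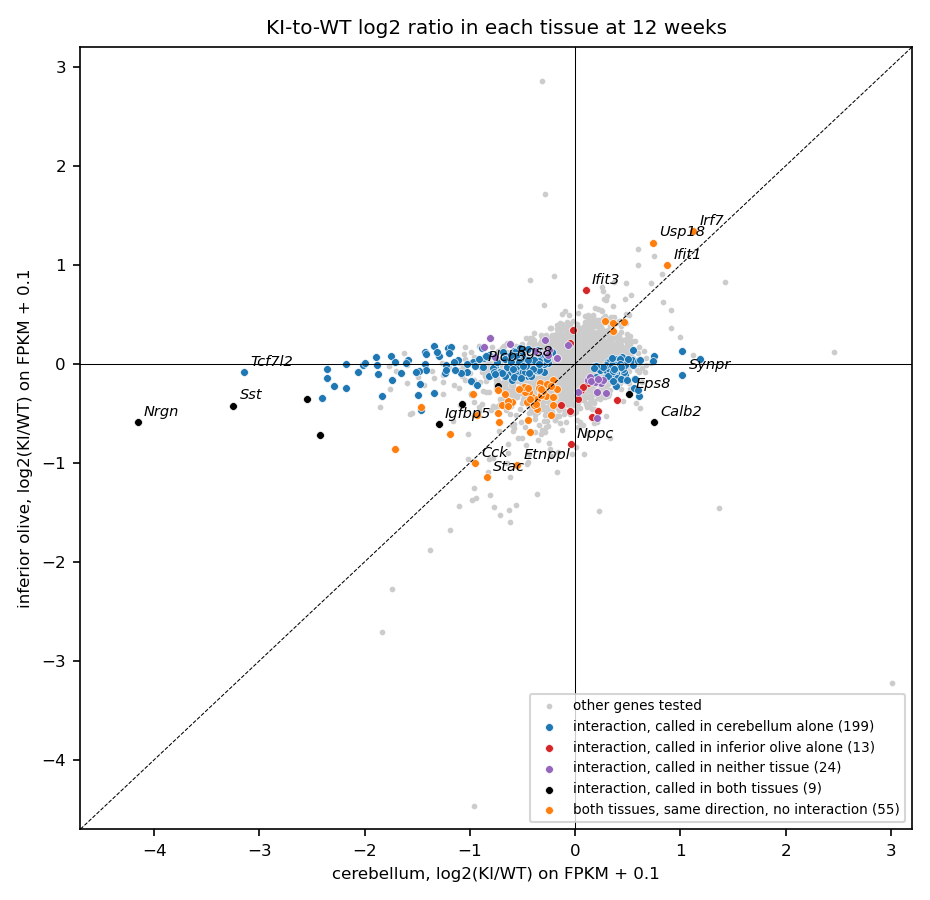
Log2 ratio of KI to WT at 12 weeks in the cerebellum (x axis) and the inferior olive (y axis), on FPKM + 0.1, 1 point per gene tested. Colors mark genes whose difference between tissues was called and genes called in both tissues in the same direction, and the dashed line marks equal ratios. The 199 genes called in the cerebellum alone spread along the x axis, from *Tcf7l2* at -3.15 to *Synpr* at 1.02 among those labelled.

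The genes that fell in the cerebellum alone and differed between tissues included *Plcb3*, *Rgs8*, *Kctd12*, *Ppp1r16b* and *Cacnb2*, which are put together here because their difference passed both in the 12 libraries and with the midbrain covariate. *Plcb3* encodes a phospholipase C beta that acts downstream of mGluR1. Its level was 14.8, 17.3 and 16.9 FPKM in the WT and 8.62, 8.83 and 8.87 FPKM in the KI cerebellum, against 4.45, 4.91 and 4.63 and 4.35, 4.76 and 4.54 FPKM in the WT and KI inferior olive. The cerebellum groups were far apart and the inferior olive groups overlapped. The KI cerebellum had 0.541 of the WT level and the KI inferior olive 0.977, a log2 difference of 0.85 ± 0.09 (SE, adjusted p = 0.00142). With the midbrain covariate the difference was 0.90 ± 0.11 (adjusted p = 0.000878), and its correlation with the midbrain sum at 5 weeks was 0.27.

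*Rgs8*, a regulator of G protein signaling strongly expressed by Purkinje cells, was at 234, 282 and 274 FPKM in WT and 170.2, 183 and 162 in KI cerebellum. In the inferior olive it was at 17.4, 18.2 and 16.5 FPKM in WT and 17.5, 17.4 and 17.99 in KI. It fell by a log2 value of 0.61 in the cerebellum and its inferior olive groups overlapped (0.02 ± 0.05), and the difference was 0.63 ± 0.10 (adjusted p = 0.00852) and 0.88 (adjusted p = 0.00188) with the covariate, beside a 5-week correlation with the midbrain sum of -0.59. *Kctd12*, an auxiliary subunit of GABA-B receptors, went from 71.9, 80.2 and 76.8 FPKM in the WT to 45.6, 45.8 and 47.7 FPKM in the KI cerebellum, and stood at 14.4, 16.7 and 16.5 and 15.1, 13.8 and 16.1 FPKM in the inferior olive. Its difference was 0.64 ± 0.10 (adjusted p = 0.00852) and 0.79 (adjusted p = 0.00488) with the covariate (r = -0.73). *Ppp1r16b*, which encodes a regulatory subunit of protein phosphatase 1, fell from 59.3, 62.0 and 62.8 to 42.4, 43.9 and 39.4 FPKM in the cerebellum while its groups overlapped in the inferior olive (24.9, 25.95 and 25.7 FPKM in WT, 25.6, 26.2 and 24.9 in KI). The difference was 0.55 ± 0.06 (adjusted p = 0.00179) and 0.56 (adjusted p = 0.0376) with the covariate (r = 0.11). *Cacnb2*, a calcium channel subunit, also passed both fits, with 0.50 ± 0.07 (adjusted p = 0.00454) and 0.52 (adjusted p = 0.0308, r = 0.29). With the midbrain sum on a log2 scale *Cacnb2* did not pass (0.48, adjusted p = 0.0548), while *Plcb3*, *Rgs8*, *Kctd12* and *Ppp1r16b* did.

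*Gng13*, *Dagla* and *Doc2b* passed in the 12 libraries but not with the covariate, where their difference was no smaller. *Gng13*, a G protein gamma subunit, was at 375, 453 and 444 FPKM in WT and 234, 233 and 249.97 in KI cerebellum, and its difference was 0.70 (adjusted p = 0.00454), or 0.89 (adjusted p = 0.199) with the covariate. *Dagla*, which makes the endocannabinoid 2-AG, gave 0.54 (adjusted p = 0.011) and 0.59 (adjusted p = 0.36). *Doc2b*, a calcium sensor of vesicle release, gave 0.46 (adjusted p = 0.0195) and 0.49 (adjusted p = 0.225).

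A second set of cerebellum-side decreases held the genes with the largest differences, and these rose and fell with the midbrain sum at 5 weeks. *Nrgn*, a calmodulin-binding protein of forebrain neurons, was at 61.3, 40.2 and 55.8 FPKM in the WT and 3.58, 2.27 and 2.69 FPKM in the KI cerebellum, 17.8 times higher in WT. In the inferior olive it fell from 12.4, 14.9 and 15.1 FPKM in WT to 10.6, 8.59 and 8.92 in KI. Its difference was 3.57 ± 0.24 (adjusted p = 3.54e-05), but -0.55 (adjusted p = 0.921) with the covariate, and at 5 weeks its correlation with the midbrain sum was 0.99. *Tcf7l2*, a Wnt pathway transcription factor of thalamic and tectal neurons, was at 18.2, 11.3 and 15.7 FPKM in WT and 1.56, 1.47 and 1.73 in KI cerebellum, and its difference went from 3.06 (adjusted p = 3.54e-05) to 0.18 (adjusted p = 0.955). The WT cerebellum library with the lowest midbrain sum, the second, also had the lowest level of both genes among the WT libraries.

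The neuropeptide gene *Sst* (48.8, 20.3 and 30.1 FPKM in WT and 3.25, 2.43 and 4.03 in KI cerebellum), the actin-binding *Enc1* (13.7, 8.05 and 11.5 and 2.32, 2.47 and 2.14) and the calcium-dependent membrane-binding *Cpne6* (9.30, 4.84 and 7.22 and 1.35, 1.48 and 1.51) behaved alike. Their differences were 2.83, 2.17 and 1.92 (adjusted p = 0.00327, 0.000399 and 0.00338), and -0.52, 0.13 and -0.05 with the covariate (adjusted p = 0.826, 0.934 and 0.9752). Among transmitter genes the vesicular glutamate transporter *Slc17a6* (difference 1.87, r = 0.97) and the receptor *Grm5* (1.62, r = 0.98) belonged to the same set. *Scg2*, a secretogranin, and *Rasd2*, a small GTPase, were intermediate, with differences of 0.75 and 0.74 without and 0.31 and 0.18 with the covariate. *Spns2*, a sphingosine 1-phosphate transporter, gave 0.55 and 0.36, and *Synpo*, an actin-associated protein of dendritic spines, 0.69 and 0.42. *Rasgrp2*, a Ras family exchange factor, with 8.41, 5.35 and 6.86 FPKM in WT and 2.2, 2.37 and 2.36 in KI cerebellum (difference 1.43, adjusted p = 0.00248), was not matched at 5 weeks.

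Over all genes higher in the inferior olive, 81 of the 151 that could be read at 5 weeks (53.6%) had a correlation above 0.7 with the midbrain sum, beside 11.6% of all 11882 genes read. Of the 82 genes lower in the inferior olive, 17 (20.7%) had a correlation below -0.7, beside 7.43% of all. In the fits over both ages the number of interaction calls was 64 without the covariate and 23 with it (14 higher and 9 lower in the inferior olive), of which 15 were among the 245. With the sum on a log2 scale it was 11, all among the 245. The cerebellum calls at 12 weeks went from 854 to 148 and 94. These fits also estimate the slope on 5-week-old mice, and an equal slope at both ages was assumed and not tested.

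**Figure D2:**
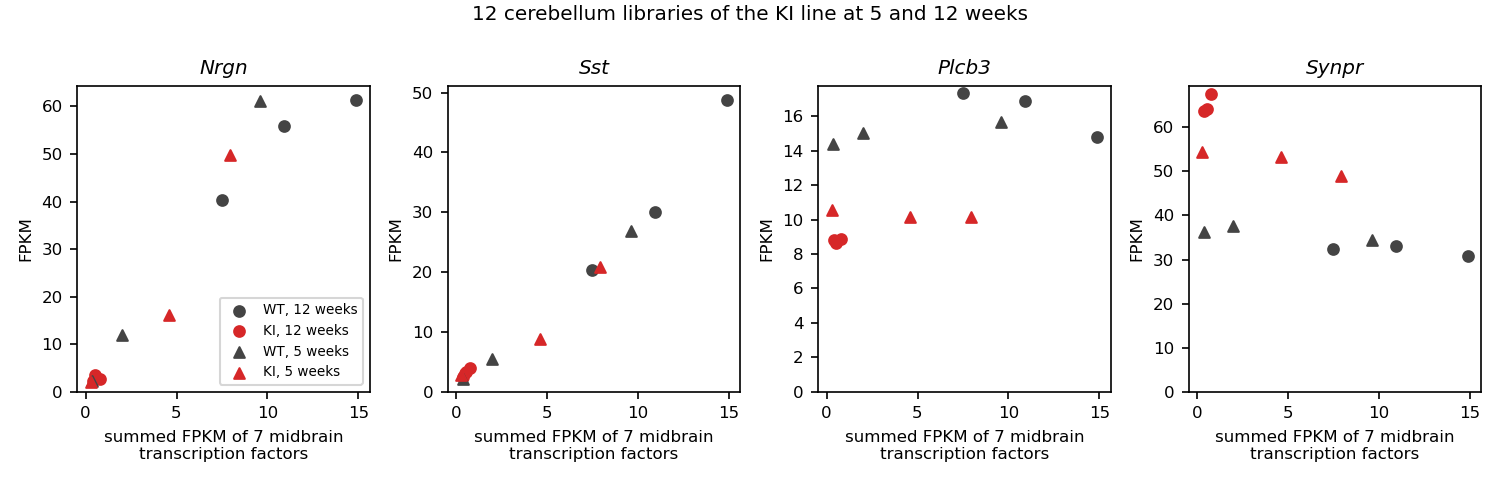
FPKM of 4 genes (y axis) against the summed FPKM of the 7 midbrain transcription factors (x axis) in the 12 cerebellum libraries of the KI line, 1 point per library, with color for genotype and shape for age. *Nrgn* and *Sst* rise with the sum in both genotypes, while in *Plcb3* and *Synpr* the WT and KI libraries are separate at both ages.

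**Figure D3:**
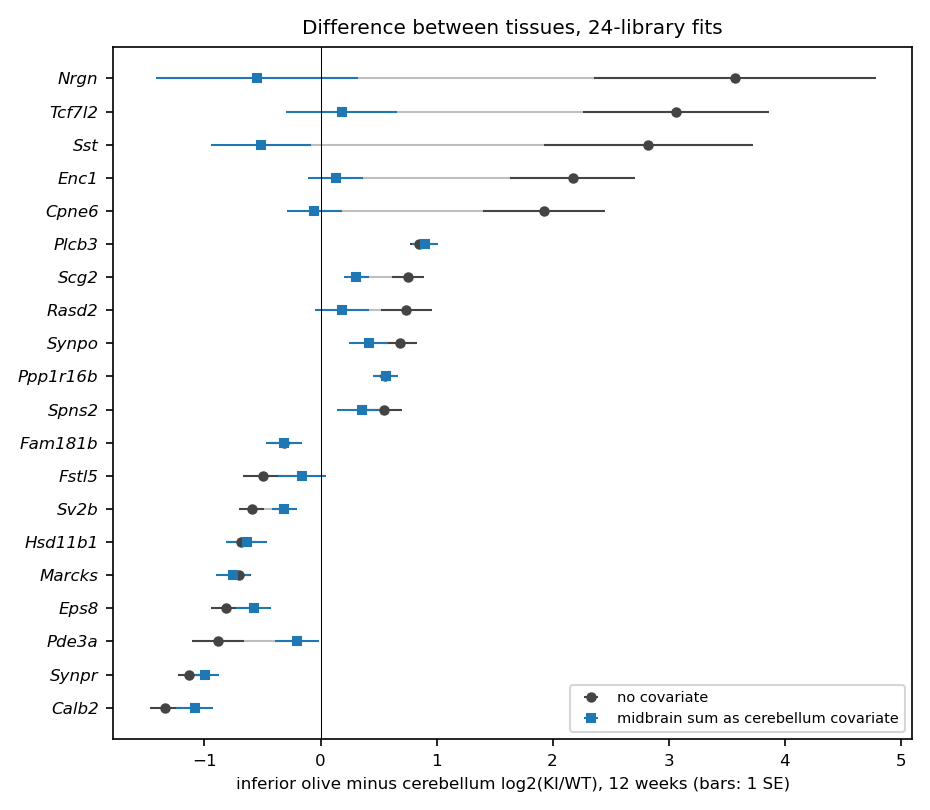
Difference between tissues in the 12-week log2 ratio (x axis) for genes of lowest p in each direction that were also measured at 5 weeks, from 24-library fits without and with the midbrain sum as a covariate of the cerebellum libraries, with bars of 1 standard error. *Nrgn*, *Tcf7l2*, *Sst*, *Enc1* and *Cpne6* move to values between -0.55 and 0.18, while *Plcb3*, *Ppp1r16b* and *Marcks* stay within 0.05 of their value.

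The genes that rose in the cerebellum alone and differed between tissues were led by *Synpr*, which encodes the synaptic vesicle protein synaptoporin. It was at 30.8, 32.4 and 33.2 FPKM in the WT and 64.3, 63.7 and 67.6 FPKM in the KI cerebellum, 2.03-fold higher, and at 16.1, 15.9 and 15.2 and 16.1, 13.6 and 13.96 FPKM in the WT and KI inferior olive. The difference was -1.13 ± 0.08 (adjusted p = 5.88e-05), and -0.9992 (adjusted p = 0.000878) with the covariate, beside a 5-week correlation with the midbrain sum of -0.70. *Marcks*, a protein kinase C substrate that binds membranes and actin, went from 47.8, 48.0 and 52.7 to 85.5, 76.9 and 85.6 FPKM in the cerebellum, with a difference of -0.71 (adjusted p = 0.00852) and -0.75 (adjusted p = 0.0376) with the covariate (r = 0.38). Both genes were higher in every KI cerebellum library than in any WT one.

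*Pde3a*, a cyclic nucleotide phosphodiesterase, rose 2.02-fold in the cerebellum, but its difference of -0.88 (adjusted p = 0.0105) became -0.20 with the covariate (r = -0.86). The synaptic vesicle protein gene *Sv2b* (-0.59 and -0.31, r = -0.85) and the follistatin-like *Fstl5* (-0.50 and -0.16, r = -0.46) shrank in the same way. The entry that joins *Brdt* and *Ephx4*, whose reads cannot be assigned to either gene, gave -0.48 (adjusted p = 0.00809).

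**Figure D4:**
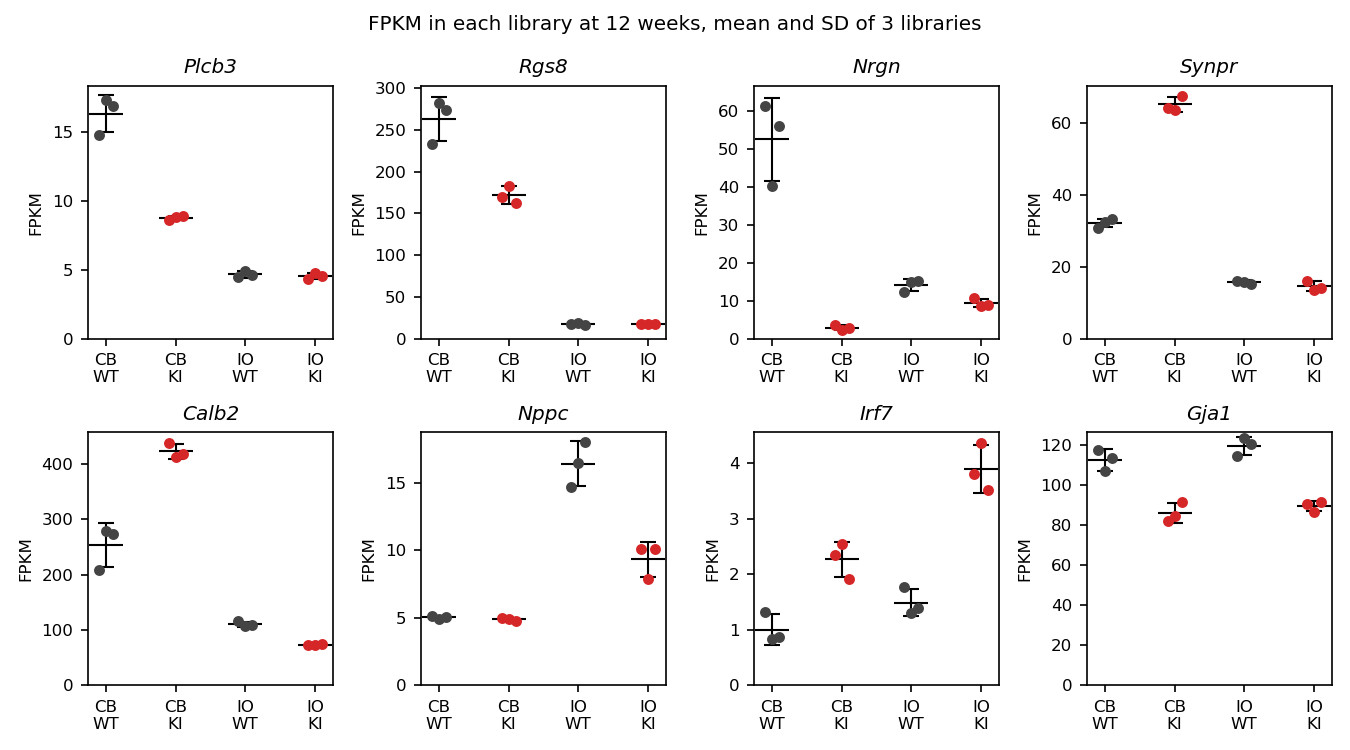
FPKM in each of the 12 libraries (y axis, from 0) for 8 genes in the WT and KI cerebellum (CB) and inferior olive (IO), with points for libraries and the mean ± SD of 3. *Plcb3*, *Rgs8* and *Nrgn* separate the genotypes in the cerebellum by a fall and *Synpr* by a rise, *Nppc* in the inferior olive alone, *Calb2* in opposite directions, and *Irf7* and *Gja1* in the same direction in both tissues.

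In 2 genes the tissues moved in opposite directions. *Calb2* encodes calretinin, a calcium buffer of granule cells and other neurons. It rose from 209, 279 and 274 FPKM in the WT to 439, 412 and 419 FPKM in the KI cerebellum (1.68-fold, adjusted p = 0.0123) and fell from 115, 106 and 109 to 72.9, 72.1 and 74.6 FPKM in the inferior olive (to 0.665 of WT, adjusted p = 0.00166). No KI library overlapped the WT range in either tissue, and the difference was -1.34 ± 0.12 (adjusted p = 0.000399), or -1.09 (adjusted p = 0.00364) with the covariate. *Eps8*, an actin-capping adaptor protein, was at 23.1, 30.9 and 28.9 FPKM in WT and 39.9, 40.5 and 37.2 in KI cerebellum and at 10.6, 11.8 and 11.04 and 9.02, 8.58 and 9.37 FPKM in the inferior olive, a difference of -0.82 (adjusted p = 0.00913) and -0.58 (adjusted p = 0.139) with the covariate. The cerebellum rise was not called with the linear covariate in *Calb2* (log2 ratio 0.50, adjusted p = 0.0972) or *Eps8* (0.27, adjusted p = 0.464), and with the log2 sum it was called in *Calb2* (0.61, adjusted p = 0.0374). Their correlations with the midbrain sum at 5 weeks were -0.42 and -0.18.

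The 13 genes that differed between tissues and were called in the inferior olive alone comprised 10 decreases and 3 increases. *Nppc*, which encodes C-type natriuretic peptide and is expressed by olivary neurons, was at 14.7, 16.5 and 18 FPKM in the WT and 10.1, 7.83 and 10.1 FPKM in the KI inferior olive, and at 5.10, 4.87 and 5.07 and 4.97, 4.86 and 4.74 FPKM in the cerebellum. The KI inferior olive had 0.57 of the WT level and the cerebellum 0.97, a difference of -0.77 ± 0.13 (adjusted p = 0.0156), or -0.83 (adjusted p = 0.0532) with the covariate. *Hsd11b1*, an enzyme that regenerates active glucocorticoid, fell from 24.6, 23.4 and 29.2 to 17.8, 17.9 and 19.5 FPKM in the inferior olive and was at 45.5, 41.6 and 46.0 and 50.1, 50.7 and 53.4 FPKM in the cerebellum (difference -0.69, adjusted p = 0.00864). *Fam181b* gave -0.31 (adjusted p = 0.0107), *Rgcc*, a regulator of cell cycle kinases, -0.42 (adjusted p = 0.0192), and *Tesc*, a calcium-binding protein, -0.76 (adjusted p = 0.016). The other decreases were *Fam227b*, *Fjx1*, *Ppap2b*, *Slc3a2* and *Tril*.

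The 3 increases in the inferior olive alone were *Ifit3*, the entry joining the MHC class I genes *H2-D1* and *H2-L*, and *Sgtb*, a co-chaperone. The MHC entry, an antigen-presentation gene pair that shares reads with near-identical copies, was at 39.2, 36.2 and 37.6 FPKM in the WT and 45.2, 51.1 and 47.2 FPKM in the KI inferior olive (difference for H2-D1,H2-L 0.36, adjusted p = 0.0192). None of the 13 passed the fit over both ages with the covariate, on either scale of the sum. The same fit without the covariate had only 2 genes called in the difference and in the inferior olive alone. There *Fam181b* did not pass (difference -0.31, adjusted p = 0.318, and -0.32 with the covariate). *Hsd11b1* passed without the covariate (-0.69, adjusted p = 0.0168) and not with it (-0.64, adjusted p = 0.170).

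Shared changes were found in 62 genes called in both tissues in the same direction (0.505% of the genes tested), 7 up and 55 down. These were 34.4% of the inferior olive calls and 8.84% of the cerebellum calls. Of the 64 genes called in both tissues in either direction, 19 were called in both in the fit over both ages without the midbrain covariate. With the linear covariate 8 were, and with the log2 sum 10. For 55 of the 62 the difference between tissues was not called. The remaining 7 (*Igfbp5*, *Kcnip2*, *Necab2*, *Nrgn*, *Paqr7*, *Sst* and *Th*) fell in both tissues and more so in the cerebellum. In *Igfbp5*, an insulin-like growth factor binding protein, the levels were 39.7, 45.3 and 43.2 FPKM in WT and 16.5, 18.8 and 16.7 in KI cerebellum and 21.1, 24.6 and 25.2 and 17.2, 16.2 and 13.1 FPKM in the inferior olive (difference 0.69, adjusted p = 0.0313, or 0.87, adjusted p = 0.0685, with the covariate).

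Among the shared decreases were genes of neurons. *Stac*, an adaptor protein of calcium channels, was at 6.66, 8.64 and 7.97 FPKM in the WT and 4.05, 4.43 and 4.32 FPKM in the KI cerebellum, and at 5.05, 5.08 and 4.48 and 2.24, 1.99 and 2.199 FPKM in the inferior olive. The KI level was 0.558 of WT in the cerebellum and 0.452 in the inferior olive, and the 95% interval of the difference ran from -0.60 to -0.02. *Cck*, the neuropeptide cholecystokinin, fell from 54.3, 55.5 and 61.9 to 27.9, 32.9 and 27.8 FPKM in the cerebellum and from 33.8, 39.8 and 39.1 to 21.5, 17.3 and 17.4 FPKM in the inferior olive, to 0.516 and 0.498 of WT (interval of the difference -0.35 to 0.25). *Pcp4*, a calmodulin regulator abundant in Purkinje cells, fell from 908, 966 and 936 to 603, 593 and 605 FPKM in the cerebellum and from 228, 235 and 245 to 178, 172 and 175 FPKM in the inferior olive. Its difference of 0.21 (interval 0.10 to 0.33) had an adjusted p of 0.061.

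*Hrh3*, a histamine receptor, gave log2 ratios of -1.19 in the cerebellum and -0.71 in the inferior olive, *Cabp7*, a calcium-binding protein, -0.48 and -0.29, and *Cnih3*, an auxiliary AMPA receptor subunit, -1.71 and -0.86. *Cnih3* followed the midbrain sum at 5 weeks (r = 0.90), and its cerebellum ratio was -0.08 with the covariate, so its shared call was not found in that fit. The cerebellum ratio of *Stac* was -1.01 (adjusted p = 0.00141) and that of *Pcp4* -0.75 (adjusted p = 0.00235) with the covariate, while *Cck* (-0.69, adjusted p = 0.219), *Hrh3* (-0.67, adjusted p = 0.206) and *Cabp7* (-0.24, adjusted p = 0.749) did not pass.

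Astrocyte genes were among the decreases of both tissues. *Gja1*, the gap junction protein connexin 43, was at 118, 107 and 113 FPKM in the WT and 81.7, 84.5 and 91.7 FPKM in the KI cerebellum, and at 114, 123 and 120.3 and 90.5, 86.4 and 91.4 FPKM in the inferior olive. The KI level was 0.764 and 0.75 of WT, and the interval of the difference ran from -0.18 to 0.13. The water channel *Aqp4* (log2 ratios -0.28 in the cerebellum and -0.33 in the inferior olive), angiotensinogen *Agt* (-0.45 and -0.57), the plasma protein gene *Itih3* (-0.43 and -0.69) and the phosphoethanolamine enzyme *Etnppl* (-0.55 and -1.03) fell in both. Of 18 astrocyte genes tested, 8 fell in the inferior olive (1.2% of all genes tested fell there), 4 in the cerebellum (3.64% of all) and 3 in both. No astrocyte gene differed between the tissues, and the median log2 ratios were -0.25 in the inferior olive and -0.24 in the cerebellum, beside -0.0053 and 0.012 over all genes. With the covariate 1 of 17 fell in the cerebellum, *Gja1* at -0.38 (adjusted p = 0.0485). The cerebellum ratios of *Aqp4* (-0.48, adjusted p = 0.0827), *Agt* (-0.32, adjusted p = 0.498), *Itih3* (-0.25, adjusted p = 0.193) and *Etnppl* (-0.07, adjusted p = 0.941) did not pass in that fit.

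The 7 shared increases included the interferon-stimulated genes *Irf7*, *Ifit1* and *Usp18*, as well as *Polr2a* and *Elovl2*. *Irf7*, a transcription factor that drives type I interferon genes, was at 1.32, 0.824 and 0.864 FPKM in the WT and 2.35, 2.54 and 1.92 FPKM in the KI cerebellum and at 1.77, 1.31 and 1.39 and 3.82, 4.38 and 3.53 FPKM in the inferior olive. It was 2.18-fold higher in KI in the cerebellum (adjusted p = 0.0192) and 2.53-fold in the inferior olive (adjusted p = 0.00302), with an interval of the difference from -0.32 to 0.75. *Ifit1*, which binds viral RNA, was at 1.83, 1.12 and 1.07 FPKM in WT and 2.67, 2.63 and 2.15 in KI cerebellum and at 1.597, 1.95 and 1.70 and 3.49, 4.12 and 3.17 FPKM in the inferior olive, 1.83-fold and 1.99-fold higher in KI.

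*Usp18*, which removes the ubiquitin-like ISG15 from proteins, rose 1.67-fold and 2.34-fold. Its cerebellum levels were low, at 0.638, 0.725 and 0.567 FPKM in WT and 1.13, 1.24 and 1.04 in KI. Outside the interferon genes, *Polr2a*, the largest subunit of RNA polymerase II, rose 1.38-fold and 1.34-fold and *Elovl2*, a fatty acid elongase, 1.28-fold and 1.25-fold in the cerebellum and the inferior olive. With the midbrain covariate the cerebellum ratio of *Irf7* was 1.70 (adjusted p = 0.00141) and of *Ifit1* 1.32 (adjusted p = 0.0108), both larger than without it. *Usp18* (1.42, adjusted p = 0.067), *Elovl2* (0.37, adjusted p = 0.188) and *Polr2a* (0.18, adjusted p = 0.649) did not pass. *Usp18* also did not pass in the same fit without the covariate (adjusted p = 0.092).

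Of 39 interferon-stimulated genes tested, 15 rose in the inferior olive (0.269% of all genes tested rose there), 6 in the cerebellum (2.07% of all) and 4 in both, and none fell. All 39 had a positive log2 ratio in the inferior olive and 36 in the cerebellum. The median ratio was 0.45 in the inferior olive and 0.33 in the cerebellum. The list was known from earlier results of these libraries to rise in the inferior olive, so its direction there is no independent evidence. With the covariate 7 rose in the cerebellum, with a median of 0.66 there, beside 8 and a median of 0.33 in the same fit without it. The median difference between tissues was 0.22 and -0.12 with the covariate, and *Ifit3* was the 1 member whose difference was called (1.3% of all genes were higher in the inferior olive). *Ifit3* was at 3.79, 3.84 and 3.55 FPKM in the WT and 6.29, 6.59 and 6.06 FPKM in the KI inferior olive, with no overlap, and at 5.44, 4.95 and 4.15 and 4.90, 5.58 and 5.05 FPKM in the WT and KI cerebellum, with overlap. The difference of 0.65 ± 0.13 (adjusted p = 0.0259) was 0.13 (adjusted p = 0.933) with the covariate, and *Ifit3* correlated with the midbrain sum at r = 0.96 at 5 weeks. The *Ifit* genes are similar in sequence, and how reads shared among them were counted is uncertain. The microglial genes, 20 of 20 tested, had 0 calls by limma in either tissue or in the difference (median ratio 0.017 in the inferior olive and -0.20 in the cerebellum, or 0.21 in the cerebellum with the covariate). At an unadjusted p below 0.05 they numbered 3, 5 and 3 in the inferior olive, the cerebellum and the difference.

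To show the regulatory sequence of members called in both tissues and in either one, the promoters of *Ifit1* (called in both tissues), *Ifit3* (called in the inferior olive alone) and *Isg15* (called in the cerebellum alone, adjusted p = 0.0397, and at 0.0679 in the inferior olive) are printed from RefSeq on GRCm38.p6, around matches to the core of the interferon-stimulated response element, GAAA, any 2 bases and GAAA again, searched on both strands (TTTC, any 2 bases and TTTC on the other). Capitals mark the matches, which overlap in *Isg15*, and each stretch ends before the transcription start.
Ifit1: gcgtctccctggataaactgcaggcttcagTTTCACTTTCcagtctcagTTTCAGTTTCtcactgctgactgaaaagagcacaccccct
Ifit3: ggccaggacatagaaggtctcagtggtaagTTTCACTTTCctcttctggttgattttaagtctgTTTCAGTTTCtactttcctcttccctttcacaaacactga
Isg15: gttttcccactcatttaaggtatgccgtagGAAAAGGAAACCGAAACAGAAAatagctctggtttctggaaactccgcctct
The stretches lie at chr19:34640755-34640843 (plus strand), chr19:34583343-34583446 (plus strand) and chr4:156200845-156200926 (minus strand). *Ifit1* and *Ifit3*, neighbors on chromosome 19 and members of a family of similar genes, each hold 2 matches that do not overlap, so the pair does not differ in this respect. Of 31 interferon-stimulated genes with a promoter entry, 15 (48.4%) held a match within 250 bases before to 50 bases after the start, beside 3.44% of all 32851 promoter entries. The first share counts a gene if any of its entries held a match, and the second counts entries. The list is of known interferon-stimulated genes, so its share is not a result of these libraries. *Irf7* held none in that window.

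Of 23 Purkinje cell genes tested, 11 fell in the cerebellum (3.64% of all genes), 4 in the inferior olive and 3 in both (*Pcp4*, *Stac* and *Necab2*), and 4 differed between tissues (*Rgs8*, *Gng13*, *Doc2b* and *Necab2*), all higher in the inferior olive (1.3% of all genes). *Necab2* correlated with the midbrain sum at 0.82, and its difference went from 2.19 to 0.61 (adjusted p = 0.714) with the covariate. None of the 23 had a positive ratio in the cerebellum. The medians were -0.37 in the cerebellum and -0.17 in the inferior olive. With the covariate the cerebellum median was -0.57 and 9 of 22 fell in the cerebellum, beside 11 of 22 in the same fit without it. *Calb1*, the calcium buffer calbindin, fell in the inferior olive from 26.03, 28.3 and 27.8 to 20.3, 17.3 and 19.8 FPKM (adjusted p = 0.00936) and was at 359, 452 and 421 FPKM in WT and 324, 359 and 324 in KI cerebellum (adjusted p = 0.0982). The difference did not pass (interval -0.48 to 0.03, adjusted p = 0.39). In the list from mGluR1 to calcium, 5 of 21 fell in the cerebellum, 2 in the inferior olive and none in both, and 3 differed between tissues (1.99% of all genes): *Plcb3*, *Rgs8* and *Camk2a*, the last with a correlation of 0.87 with the midbrain sum and a difference of -0.01 (adjusted p = 0.991) with the covariate.

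Of 17 granule cell genes tested, 3 rose in the KI cerebellum (*Calb2*, *Pax6* and *Nfia*, beside 2.07% of all genes). All 17 had a positive ratio in the cerebellum (median 0.23) and 4 of 17 in the inferior olive (median -0.081). *Calb2* and *Nfia* differed between tissues. The summed granule list was 1722 to 2457 FPKM in WT and 2522 to 2664 FPKM in KI cerebellum, lowest in the WT library with the highest midbrain sum. With the covariate none of the 17 rose in the cerebellum, and their median there was -0.11. The part of the midbrain transcripts in this list was not tested.

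Of 33 potassium and HCN channel genes, 6 differed between tissues, all higher in the inferior olive (1.3% of all genes), among them *Kcna4*, *Kcna6*, *Kcnc2*, *Kcnip1* and *Kcnip2*. *Kcnc2*, a fast delayed rectifier, had the largest difference of the 6, 1.98, with 10.8, 4.52 and 7.34 FPKM in WT and 1.49, 1.51 and 1.89 in KI cerebellum. Of those named, all but *Kcna6* (r = -0.33) correlated above 0.7 with the midbrain sum at 5 weeks. Among 23 glutamate receptor subunits 1 differed (*Grm5*), among 20 genes of GABA receptors and synthesis 2 (*Gabbr1* and *Gabrg3*), and among 23 voltage-gated calcium and sodium channels 2 (*Cacnb2* and *Scn3b*). *Gabbr1*, a GABA-B receptor subunit, was at 174, 178 and 183 FPKM in WT and 141, 141 and 136 in KI cerebellum with a difference of 0.28 (adjusted p = 0.0177) and a correlation of -0.54, while *Gabrg3* (r = 0.98) and *Scn3b* (r = 0.99) followed the midbrain sum. Neither *Gabbr1* nor *Kcna6* was among the 23 genes whose difference was called with the linear covariate.

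Of 15 neuropeptide genes 4 differed: *Sst*, *Scg2* and *Vgf* were higher in the inferior olive and *Nppc* lower (1.99% of all genes differed). At 5 weeks 8 of the 14 read correlated above 0.7 with the midbrain sum, beside 11.6% of all genes. In the list of Capicua-repressed and MAPK feedback genes 3 of 16 differed, beside 1.99% of all genes: *Ccnd1*, which encodes cyclin D1, rose in the cerebellum from 10.96, 12.1 and 12.8 to 18.5, 16.5 and 16.9 FPKM and not in the inferior olive (difference -0.54, adjusted p = 0.016), and *Igfbp5* and *Shc3* were higher in the inferior olive. The median difference of this list was 0.026. In the cerebellum 2 of its genes rose and 3 fell (2.07% and 3.64% of all genes). In the inferior olive 1 rose and 2 fell (0.269% and 1.2% of all genes). *Ccnd1*, *Igfbp5* and *Shc3* were not among the 23 genes called with the linear covariate, a fit that read 15 of the 16. Among 17 genes of ATXN1 and its partners none was called in either tissue or in the difference (2, 3 and 4 at an unadjusted p below 0.05 in the inferior olive, the cerebellum and the difference), with a median difference of 0.0028. Of 22 cholesterol synthesis genes *Mvd* differed, and *Cyp51* fell in both tissues. None of 18 immediate early, 21 heat shock and 16 circadian clock genes differed, and in these lists 1, 0 and 1 passed in the inferior olive and 0, 1 and 4 in the cerebellum. All of these calls were decreases, beside 1.2% of all genes that fell in the inferior olive and 3.64% in the cerebellum. *Tef*, a clock output transcription factor, fell in both tissues (log2 ratios -0.32 in the cerebellum and -0.26 in the inferior olive).

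Of 21 oligodendrocyte genes 4 fell in each tissue (1.2% of all genes in the inferior olive and 3.64% in the cerebellum), 2 of them in both (*Cldn11* and *Mal*), and none differed. Their sum was 2331 to 3481 FPKM in WT and 2018 to 2036 FPKM in KI cerebellum, and 7072 to 7509 and 6446 to 6643 FPKM in WT and KI inferior olive. With the covariate none of 19 fell in the cerebellum, beside 7 in the same fit without it. Of 25 leptomeningeal genes 1 rose in the cerebellum (*Cemip*) and none differed. Among 8 inferior olive neuron genes that passed the minimum 4 differed (1.99% of all genes): *Igfbp5* and *Slc17a6* were higher and *Nppc* and *Cdh8* lower in the inferior olive. None of the 8 had a positive KI-to-WT ratio in the inferior olive, and 3 were called down there (1.2% of all genes). In the cerebellum 3 fell and 1 rose (3.64% and 2.07% of all genes). Of the 7 read at 5 weeks 3 correlated above 0.7 with the midbrain sum, and their cerebellum median went from -0.29 to 0.018 with the covariate. Of 4 erythrocyte genes *Hbb-bt* fell in the inferior olive. The 2 pituitary genes tested had no call.

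**Figure D5:**
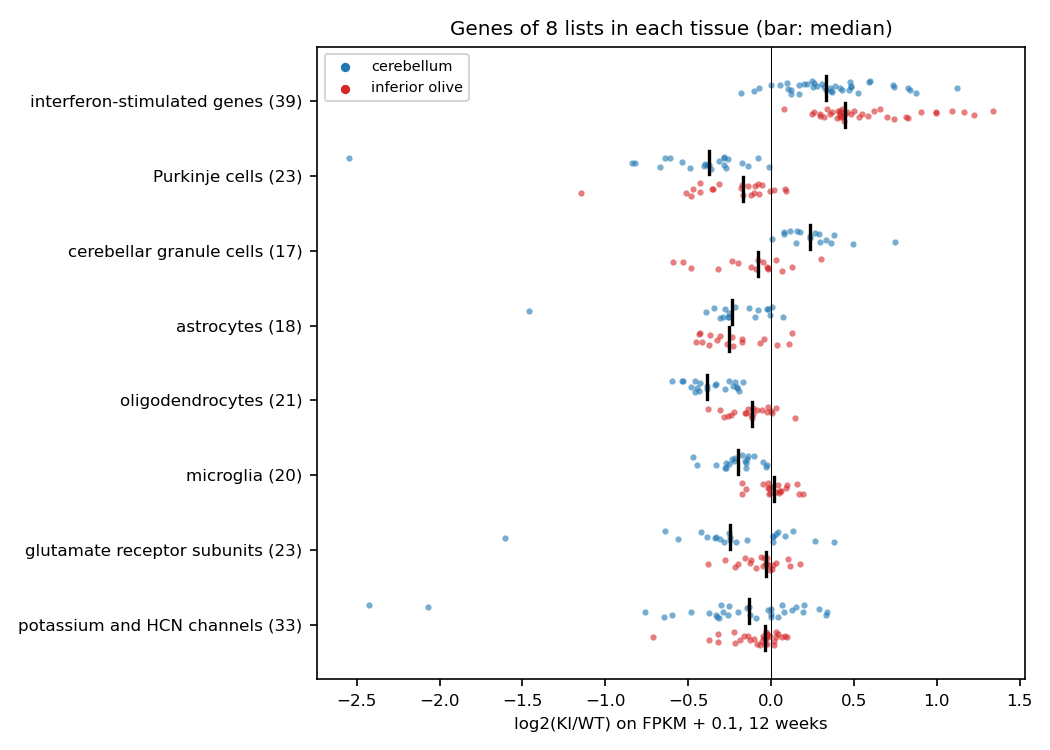
Log2 ratio of KI to WT at 12 weeks (x axis) for the tested genes of 8 lists, 1 point per gene in the cerebellum and the inferior olive, with bars at the medians. Interferon-stimulated and astrocyte genes shift the same way in both tissues (medians 0.45 and 0.33, and -0.25 and -0.24, inferior olive first), and the cerebellum medians of Purkinje and granule cell genes lie at -0.37 and 0.23.

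Some genes, among them genes typical of a tissue, could not enter the comparison. They averaged below 0.5 FPKM in at least 1 group of the other tissue. Of 761 matched genes that passed the minimum in the inferior olive alone, 17 were called there, 1 up and 16 down (1.47% of all 12282 genes tested were called there). *Crh*, the climbing fiber peptide corticotropin-releasing hormone, went from 20.6, 18.5 and 17.2 FPKM in the WT to 4.52, 3.87 and 5.21 FPKM in the KI inferior olive (log2 ratio -2.03 ± 0.11, adjusted p = 0.00077). *Htr5b* fell from 9.02, 7.22 and 6.47 to 2.25, 2.40 and 2.81 FPKM (-1.56 ± 0.13, adjusted p = 0.00214). In both genes the genotypes were fully separated. Of 271 genes that passed in the cerebellum alone, 26 were called, 10 up and 16 down (5.71% of all genes tested were called there). Those of lowest p were *Mdfi*, an inhibitor of myogenic transcription factors, at 7.68, 8.61 and 8.55 FPKM in WT and 2.80, 2.85 and 2.88 in KI cerebellum (-1.51 ± 0.07, adjusted p = 0.00016), and *Mndal*, an interferon-inducible gene that rose from 1.27, 0.866 and 0.969 to 3.82, 4.05 and 4.09 FPKM (1.86 ± 0.14, adjusted p = 0.00185). In the inferior olive *Mdfi* was at 1.61, 1.06 and 1.49 FPKM in WT and 0.315, 0.547 and 0.290 in KI. *Mndal* was at 0.544, 0.461 and 0.435 FPKM in WT and 0.783, 0.704 and 0.752 in KI there. Both genes thus moved in the same direction in the inferior olive, which was not tested. *Crh*, *Htr5b*, *Mdfi* and *Mndal* were named after their values were seen, from those of lowest p.

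The genes that differed at 12 weeks were read in other mice. At 5 weeks in the same line no gene was called for a difference between tissues (0 of 12244 by limma, 518 at an unadjusted p below 0.05). Of the 82 genes lower in the inferior olive at 12 weeks that could be read, 73 (89%) had the same sign at 5 weeks, with a median difference of -0.18 beside -0.43 at 12 weeks. Of the 151 higher ones 92 (60.9%) had the same sign, with medians of 0.064 and 0.68. Over all 11716 genes read 6564 (56%) had the same sign, so the share among the higher genes was near that of all genes. Of the genes that followed the midbrain sum, *Tcf7l2* was at -0.03 ± 1.03 (SE), *Cpne6* at 0.0092 ± 0.65, *Nrgn* at -0.28 ± 1.56, *Enc1* at -0.31 ± 0.68 and *Sst* at -0.39 ± 1.12 at 5 weeks. These errors are too large to show whether the tissues differed in these genes. *Plcb3* was at 0.44 ± 0.09, *Rgs8* at 0.42, *Synpr* at -0.47 ± 0.11, *Calb2* at -0.59 ± 0.14 and *Nppc* at -0.84. The 5-week libraries are separate mice, and the 5-week differences of *Plcb3*, *Rgs8*, *Synpr*, *Calb2* and *Nppc* had the sign of the 12-week ones.

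In the ATXN1-82Q transgenic (Tg) line at 12 weeks, where human ATXN1 with 82 glutamines is driven in Purkinje cells by the *Pcp2* promoter on the FVB/NJ strain, 603 of 12373 genes (4.87%) differed between tissues, 437 higher and 166 lower in the inferior olive. Of 157 KI genes higher in the inferior olive that could be read there, 37 (23.6%) were called in the same direction and 5 (3.18%) in the opposite one. Of 83 lower ones 7 (8.43%) and 5 (6.02%) were. Over all 11641 genes read 354 (3.04%) were called in the direction of their KI difference and 216 (1.86%) in the opposite one. *Rgs8* (2.22, adjusted p = 7.01e-07), *Gng13* (2.45, adjusted p = 1.97e-06), *Plcb3* (1.39, adjusted p = 4.57e-05) and *Ppp1r16b* (1.37, adjusted p = 4.47e-06) had larger differences in the Tg line than in the KI line. *Synpr* (-0.30, adjusted p = 0.41) did not pass there, and *Calb2* had the opposite sign (0.53, adjusted p = 0.000361). *Stac*, shared in the KI line, differed in the Tg line (1.67, adjusted p = 3.59e-06), where it fell in the cerebellum by a log2 value of 1.89. The midbrain sum was 8.98 to 15.8 in the 6 cerebellum libraries of that experiment, 8.98 to 15.8 in WT and 14.8 to 15.3 in Tg. Whether a gene's difference is itself different between the lines was not tested.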

How the data were processed

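RNA was sequenced from whole dissected cerebellum and inferior olive. Per the submitters' processing notes, the authors aligned reads to mm10 with TopHat2 2.1.0, estimated expression with Cufflinks 2.2.1 and normalized with Cuffnorm, and the deposited values are FPKM per gene and library, normalized over the 6 libraries of a table. The tables also hold group averages and the authors' fold changes and p-values, none of which was used. FPKM keep no fragment counts, so depth is described by the genes detected.

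Genes were matched by symbol where listed once in both tables. Entries without a symbol (12.8% of the cerebellum table and 10.6% of the inferior olive table) and repeated symbols were left out. Tests used limma 3.58.1 in R 4.3.3 with a variance trend on log2(FPKM + 0.1), a minimum mean of 0.5 FPKM in all 4 groups, and Benjamini-Hochberg adjustment over all genes tested (threshold 0.05). A log2 ratio on this scale understates changes of low genes. The difference between tissues was a contrast over 12 libraries with a term for the table, and each tissue was also fitted on its own 6 libraries. Fits over 24 libraries of both ages, with and without the midbrain covariate, were chosen after seeing the data. The procedure was tested on simulated data.

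Genes were named by rule: *Atxn1*, the 12 genes of lowest p in each direction of the difference, up to 8 shared genes in each direction (all with 1 FPKM or more in all 4 groups), shared genes of opposite direction, and members of 23 gene lists. Others (*Etnppl*, *Agt*, *Dagla*, *Kctd12*, *Paqr7*, *Th*, the remaining genes called in the inferior olive alone, those below the minimum and those called with the covariate) were named after their values were seen. Some genes that the rule names are not reported here. The comparison, the members and the lists were chosen with earlier results of these data known. Promoters came from RefSeq (GRCm38.p6).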

Additional observations from a re-analysis of the deposited data

Results flagged for a closer look

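For 22 genes named for the lowest p the KI-to-WT ratio differed between the tissues by the test of the difference itself. For 12 the log2 ratio was higher in the inferior olive, by 3.57 for *Nrgn*, 3.06 for *Tcf7l2*, 2.83 for *Sst*, 2.17 for *Enc1*, 1.92 for *Cpne6*, 1.43 for *Rasgrp2*, 0.85 for *Plcb3*, 0.75 for *Scg2*, 0.74 for *Rasd2*, 0.69 for *Synpo*, 0.55 for *Ppp1r16b* and 0.55 for *Spns2*. For the other 10 the difference was -1.34 for *Calb2*, -1.13 for *Synpr*, -0.88 for *Pde3a*, -0.82 for *Eps8*, -0.71 for *Marcks*, -0.69 for *Hsd11b1*, -0.59 for *Sv2b*, -0.50 for *Fstl5*, -0.48 for the entry joining *Brdt* and *Ephx4* (Brdt,Ephx4) and -0.31 for *Fam181b*.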

How the results depend on the processing

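Pseudocounts of 1 and 0.01, a minimum of 1 FPKM, no minimum, rescaling within each table and repeated symbols left every count within 1.5 times its value. The main counts were 245 for the difference between tissues, 180 for the inferior olive, 701 for the cerebellum, 62 shared and 212 tissue-specific (called in the difference and in 1 tissue alone). Without the variance trend the inferior olive gave 91, the cerebellum 379 and shared genes 20. With limma's array weights the difference gave 925, the cerebellum 2751, shared genes 157 and tissue-specific genes 807. One spread for all 12 libraries gave 1697 in the cerebellum, and tissues fitted apart gave 453 for the difference. The fits over both ages, added after the data were seen, gave 64, 23 and 11 for the difference (no covariate, linear, log2), 46, 82 and 57 for the inferior olive, 148 and 94 with the covariates for the cerebellum, 25, 12 and 9 shared and 62, 22 and 10 tissue-specific. The causes were not tested.

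Leaving out 1 library gave 84 to 564 for the difference, where each library but WT cerebellum 3 moved the count by over 1.5 times. Without WT cerebellum 1 it was 417, without KI cerebellum 1, 2 and 3 it was 90, 135 and 114, without WT inferior olive 1 and 2 it was 108 and 119, and without KI inferior olive 1, 2 and 3 it was 117, 107 and 122. Of the 84 calls left without WT inferior olive 3, 83 were among the 245. The range was 30 to 147 for the inferior olive (43 without WT 2, 78 and 101 without KI 1 and 2), 83 to 1115 for the cerebellum (174 without WT 3, 105 and 85 without KI 2 and 3), 16 to 80 shared, 46 to 448 tissue-specific, 0 to 1 at 5 weeks and 354 to 888 in the Tg line.

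The replicate numbers did not pair the samples: deviations of same-numbered libraries correlated at -0.47 to 0.231. With the replicate number as a block, the difference gave 115 calls, of which 108 were among the 245, the inferior olive 81, the cerebellum 255, shared genes 20 and tissue-specific genes 81. Under the block *Fam181b* (adjusted p = 0.0528) missed the threshold by limma, the only such case among 484 for called named genes under the alternatives fixed at the start. These genes were picked for the lowest p, so that most would keep their call was likely from the start. In the added fits over both ages 35 cases of these genes lost the call, 5 reversed sign and 20 kept the call.

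Signs of the difference reversed with the linear and log2 covariates for *Nrgn* (-0.55 and -0.41), *Sst* (-0.52 and -0.072), *Polr2a* (0.24 and 0.20), *Irf7* (-0.36 and -0.10), *Ifit1* (-0.33 and -0.19) and *Cnih3* (-0.78 and -0.51), and with the linear one for *Cpne6* (-0.052), *Hrh3* (-0.034) and *Cabp7* (-0.049). Other reversals were in shared genes whose difference was not called: *Ifit1* (-0.12) and *Cck* (0.066) with array weights, and, over the fits without 1 library, *Ifit1* (-0.11 without WT cerebellum 1, to 0.25), *Cck* (-0.15 to 0.028, above 0 without KI cerebellum 2 and, at 0.00075, without KI inferior olive 2), and *Elovl2* (-0.078 to 0.026, above 0 without WT inferior olive 3 and, at 0.0046, without KI cerebellum 2).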

Other observations

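With the midbrain sum as a linear covariate, 8 genes were called for a difference between tissues that were not among the 245 called without it. None of the 8 passed with the sum on a log2 scale (adjusted p by limma from 0.0529 for *Rasgrp1* to 0.966 for *Cpne4*), so these calls depend on the scale of the sum. In *Rasgrp1*, a Ras exchange factor, *Shisa6*, an auxiliary AMPA receptor subunit, and *Tspan18*, a tetraspanin, the difference had the same sign without and with the covariate. It went from 0.31 to 0.61 for *Rasgrp1*, from 0.35 to 0.75 for *Shisa6* and from 0.45 to 0.80 for *Tspan18*, with adjusted p (limma) of 0.0218, 0.00364 and 0.0441 with the covariate. In *Rprm*, a regulator of the cell cycle, it went from -0.82 to -1.92 (adjusted p = 0.00188), in *Fam163b* from -0.04 to -1.78 (adjusted p = 0.0016) and in the potassium channel gene *Kcnk2* from -0.24 to -0.59 (adjusted p = 0.0404). In *Stk32c* (0.88 to -0.97, adjusted p = 0.0117) and *Cpne4* (0.45 to -1.34, adjusted p = 0.0404) the sign turned. Of these 8, *Rasgrp1*, *Shisa6* and *Tspan18* correlated negatively with the midbrain sum at 5 weeks (r = -0.86, -0.82 and -0.75) and the remaining 5 positively (0.74 to 0.94).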
